A study of Drosophila melanogaster with 12 samples.

Results

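The core protein genes of the small nucleolar ribonucleoproteins (snoRNPs) were examined in Drosophila S2 cells, a macrophage-like line derived from embryos. The 10 genes were chosen by name: hoip, nop5, Nop56, Fib and U3-55K of the box C/D particles, Nop60B, NHP2, CG4038 and CG7637 of the H/ACA particles, and Nopp140, which encodes a chaperone of both. They are 10 of the 10287 genes in the RNA-seq count table. They were chosen with their response to insulin known, so their insulin and vehicle values are given as a description, with no test. Both groups were kept without serum for 24 h. Insulin-exposed cells then received 10 µM insulin for 4 h (the sample labels write 10 M), and vehicle-exposed cells received HEPES buffer alone (25 mM, pH 8.2) over the same time. Each treatment had 3 RNA-seq samples, and 3 ATAC-seq samples of 60000 sorted DAPI-negative cells. All samples are of 1 cell line, and the study calls its ATAC-seq samples biological replicates without saying, for either assay, whether they came from separate cultures, so that p-values measure the spread between these samples.

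The snoRNPs modify ribosomal RNA in the nucleolus and take part in its cleavage. Each pairs a guide RNA with a fixed set of proteins. In box C/D particles, fibrillarin adds methyl groups to the ribose of the target, and in H/ACA particles, dyskerin turns uridine into pseudouridine. The U3 box C/D particle guides early processing of the small subunit rRNA instead. Many insect guide RNAs lie in introns of genes whose products serve ribosomes, and some of the present genes carry such RNAs themselves.

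The promoters of the 10 genes share a feature that was not itself used to choose them. The E-box, CACGTG, is a palindrome that reads the same on both strands and is the sequence bound by the growth regulator Myc with its partner Max. It was searched from 250 bases before to 50 bases after the annotated start of each gene, and 10 of the 10 promoters held it, against 4.19% of 13878 protein-coding promoters. The comparison is not independent of the choice, which used the response to insulin. Of the other genes called higher after insulin 8.65% held the E-box, against 2.28% of those called lower. Windows of 30 bases around the E-box of 5 of the genes are printed below to show how it lies in different surroundings. They read 5′ to 3′ along the gene in the dm6 reference sequence (RefSeq, Release 6), and capitals mark the E-box.
hoip (chr2L:9699807-9699836, plus strand): ctaacgctaacgCACGTGtttgaaagcgat
nop5 (chr2L:6918733-6918762, minus strand): agaccgaaggcaCACGTGcttgcacttcat
Nop56 (chr3R:22421023-22421052, minus strand): acttgaagtaagCACGTGggaaaacaactg
NHP2 (chr3L:14802132-14802161, minus strand): ggtcacactgaaCACGTGtttcgaacaaaa
Nopp140 (chr3L:21832780-21832809, plus strand): ataagtagaaaaCACGTGtgagtgcgcatt

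The RNA-seq libraries held 7132065 to 9850342 counts after insulin and 8125856 to 10256535 after vehicle. Ribosomal RNA took 2.74% to 3.61% of the counts after insulin and 3.61% to 3.99% after vehicle. Of 10 blood cell markers listed, 7 were found in the count table by the listed symbol. Of these, 6 averaged over 10 CPM, as the label of the line implies. CPM are counts relative to the TMM-scaled size of the library, or for the cell type markers to its total counts. Col4a1 stands in the table under the older symbol Cg25C and was left out. Cg25C, named beyond the rule for naming genes, had 359, 364 and 413 TMM-scaled CPM after insulin, against 408, 421 and 425 after vehicle. The 7 markers found summed to 862 to 906 CPM after insulin and 1097 to 1137 CPM after vehicle, and the part of this level in the values below was not tested. Muscle markers summed to 0.681 to 1.26 CPM after insulin and 0.487 to 0.861 CPM after vehicle, and germline markers to 2.38 to 4.50 CPM after insulin and 3.31 to 4.94 CPM after vehicle. Of the neuron markers only elav passed 10 CPM, and the list summed to 64.3 to 65.2 CPM after insulin and 56.6 to 65.0 CPM after vehicle. Of the 4 fat body markers listed, 0 were found in the count table by the listed symbol. In bulk RNA a lower number of cells of a type and less RNA per cell cannot be told apart.

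All 10 genes passed the filter on low counts and had more RNA after insulin. The lowest insulin library lay above the highest vehicle library for 10 of the 10, a state found for 28.8% of the 8683 genes tested. In the fit over all genes (edgeR, FDR below 0.05), 10 were called higher and 0 lower, where 27.0% of all genes were called higher and 23.1% lower. Nothing is read from these counts, because the choice of the genes used this contrast. The median log2 fold change was 1.26 (2.40-fold) over the 10 genes and -0.01 over all genes. A log2 fold change above 1 was found for 105 of all genes (1.21%), among them every member but Nop60B. The 10 genes together took 0.289%, 0.291% and 0.301% of all counts in the insulin libraries X4 to X6, against 0.126%, 0.120% and 0.128% in the vehicle libraries X1 to X3.

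Among the box C/D genes, hoip stood apart. It encodes the fly homolog of yeast Snu13, which binds the kink-turn of box C/D RNAs first, and which also binds U4 snRNA in the spliceosome. The gene lies on chromosome 2L (9699791 to 9700459, plus strand). It had 359, 388 and 354 CPM in X4 to X6 after insulin, against 96.3, 94.0 and 96.0 CPM in X1 to X3 after vehicle. The lowest insulin library was 3.68 times the highest vehicle library. The log2 fold change was 1.94 (SE 0.04), a 3.84-fold difference and the 4th largest of the 8683 genes. Leaving hoip out, the other 9 genes ranged from 0.91 to 1.42 on the log2 scale.

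The scaffold pair nop5 and Nop56 moved by nearly the same factor. The encoded proteins form the dimer that holds fibrillarin against the guide RNA, and nop5 is the fly counterpart of Nop58. nop5 (2L, 6916753 to 6918743, minus strand) lies inside an intron of x16. It had 451, 451 and 468 CPM after insulin, against 184, 180 and 191 CPM after vehicle, a log2 fold change of 1.30 (SE 0.03). Nop56 (3R, 22419095 to 22421068, minus strand) had 545, 588 and 546 CPM after insulin, against 230, 228 and 230 CPM after vehicle, a log2 fold change of 1.29 (SE 0.03). Per kilobase of exon, Nop56 over nop5 was 1.21 to 1.35 in insulin libraries and 1.25 to 1.32 in vehicle libraries, so that the ranges of this ratio overlapped. The ratio of hoip to nop5 per kilobase did not overlap, at 2.26 to 2.57 after insulin and 1.50 to 1.56 after vehicle. That restates the larger log2 fold change of hoip.

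Fib encodes fibrillarin, the methyltransferase. It lies on 2R (23072909 to 23074725, minus strand) and had 190, 186 and 198 CPM after insulin, against 86.2, 75.3 and 81.5 CPM after vehicle. The log2 fold change was 1.24 (SE 0.05), the smallest among the box C/D genes. U3-55K, whose human homolog RRP9 belongs to the U3 particle alone, lies on 2R (14858845 to 14860758, minus strand). It had 94.6, 92.0 and 108 CPM after insulin, against 36.0, 35.0 and 38.2 CPM after vehicle. Its log2 fold change of 1.42 (SE 0.06) was the next largest after hoip, and the 9th largest of all genes. For both genes the lowest insulin library lay above the highest vehicle library, as it did for 28.8% of all genes tested.

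Among the H/ACA genes, Nop60B gave the smallest value of the 10. It encodes the fly dyskerin, the pseudouridine synthase, and lies on 2R (24174877 to 24186343, plus strand). It had 416, 395 and 407 CPM after insulin, against 221, 209 and 219 CPM after vehicle. The lowest insulin library lay above the highest vehicle library, as for 28.8% of all genes tested. The log2 fold change was 0.91 (SE 0.03), or 1.88-fold, which ranked 176th. NHP2 (3L, 14801328 to 14802168, minus strand) encodes the H/ACA relative of the hoip protein. It had 113, 117 and 114 CPM after insulin, against 52.7, 50.9 and 51.2 CPM after vehicle, a log2 fold change of 1.15 (SE 0.05).

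The small H/ACA subunits lay higher on the log2 scale than Nop60B. CG7637 (2R, 10810556 to 10810936, minus strand), annotated as Nop10, encodes a protein of 64 codons that binds the synthase. It had 101, 106 and 108 CPM after insulin, against 38.1, 41.2 and 43.8 CPM after vehicle, a log2 fold change of 1.35 (SE 0.05). CG4038 (2R, 21095958 to 21097305, minus strand), annotated as Gar1, was the least abundant of the 10, with 134 to 193 counts in an insulin library and 76 to 89 in a vehicle library. It had 19.8, 19.4 and 23.2 CPM after insulin, against 8.70, 9.38 and 8.45 CPM after vehicle. Its log2 fold change of 1.23 had the largest standard error of the 10, 0.11. CG7637 overlaps CG12935 and CG4038 overlaps CG34396 on the opposite strand, and reads were counted by strand.

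Nopp140 had the most counts. Its product is a phosphorylated nucleolar protein that binds both classes of particle. The gene (3L, 21832774 to 21836685, plus strand) had 637, 661 and 701 CPM after insulin, against 287, 283 and 287 CPM after vehicle. The log2 fold change was 1.22 (SE 0.03), between the medians of the H/ACA genes (1.19) and the box C/D genes (1.30). Without hoip the box C/D median was 1.29. The summed level of the box C/D genes was 2.53, 2.68 and 2.57 times that of the H/ACA genes in X4 to X6 after insulin, against 1.98, 1.97 and 1.97 times in X1 to X3 after vehicle. The box C/D sum includes hoip and the H/ACA sum Nop60B, the genes with the largest and smallest log2 fold changes of the 10. By gene the classes overlapped, at 1.24 to 1.94 for box C/D and 0.91 to 1.35 for H/ACA. A ratio without hoip and Nop60B was not computed.

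**Figure D1:**
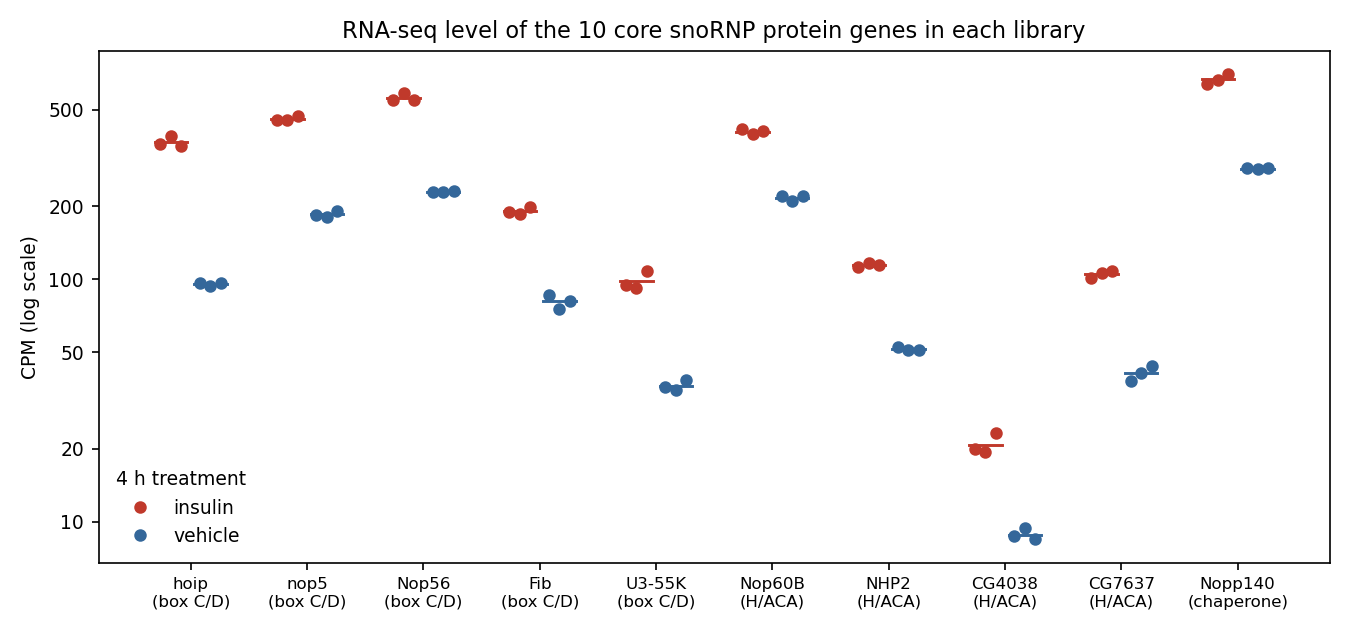
Level of each of the 10 genes in CPM on a log scale, in the 3 insulin libraries (red) and the 3 vehicle libraries (blue); each point is a library and each line is the mean of its group. The insulin points lie above the vehicle points for every gene, with the widest gap for hoip and the narrowest for Nop60B.

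Levels were compared between genes per kilobase of summed exon. After insulin hoip was highest with a mean of 605 CPM per kilobase, followed by CG7637 (333), Nop56 (321), nop5 (252), Nopp140 (206), NHP2 (147), Fib (145), Nop60B (119), U3-55K (58.0) and CG4038 (21.7). In this order CG7637 and Nop56 overlapped between libraries, as did NHP2 and Fib, and no other neighbours did. After vehicle hoip was again highest, with 157 CPM per kilobase, and the order went on with Nop56 (131), CG7637 (130), nop5 (102), Nopp140 (88.4), NHP2 (66.1), Nop60B (63.4), Fib (61.4), U3-55K (21.6) and CG4038 (9.24). Here Nop56 and CG7637 overlapped, and so did Nop60B and Fib. The order in the middle depended on the length used, since Nop60B has 3412 bp of summed exon for 508 codons. Per kilobase of coding sequence Nop60B, at 266 CPM after insulin and 142 CPM after vehicle, lay above NHP2 (239 CPM after insulin and 108 CPM after vehicle) and Fib (185 CPM after insulin and 78.5 CPM after vehicle). After vehicle it also passed nop5 and Nopp140, and CG7637 passed Nop56 (214 and 154 CPM). By either length hoip was highest, and CG4038 and U3-55K were the lowest, in both groups. Among protein-coding genes tested, the level per kilobase of CG4038 was at percentile 54.1 after insulin and 28.9 after vehicle, and that of hoip at percentile 98.5 after insulin and 95.6 after vehicle. Coefficients of variation within a group ranged from 0.416% to 10.0%.

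The levels of H/ACA subunits relative to Nop60B, per kilobase, restate its smaller log2 fold change by library and are no further result. NHP2 over Nop60B was 1.18, 1.29 and 1.23 after insulin, against 1.04, 1.07 and 1.02 after vehicle. CG7637 over Nop60B was 2.61, 2.91 and 2.88 after insulin, against 1.86, 2.13 and 2.15 after vehicle. For both ratios the libraries of the groups did not overlap, and nothing is read from this, because the choice of the genes used this contrast. Per kilobase of coding sequence NHP2 lay below Nop60B instead, at ratios of 0.86, 0.939 and 0.893 after insulin, against 0.759, 0.774 and 0.742 after vehicle, so that only the difference between the groups, and not which gene is higher, is independent of the length.

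Genes that act beside the particles were taken as 3 lists, each with a median log2 fold change below that of the 10 genes, a difference that was not tested. These lists, like the 10 genes, were chosen with earlier results of these data known. Over all 8683 genes tested, 27.0% were called higher and 23.1% lower. The SSU processome, which forms around the U3 particle on the nascent rRNA, was represented by 10 proteins, and 10 of 10 tested genes were called higher and 0 lower (edgeR, FDR below 0.05), with a median log2 fold change of 0.86. The largest value, which lay above those of 6 members, belonged to l(1)G0020, annotated as NAT10, the rRNA acetyltransferase, with 160 ± 3.66 CPM after insulin and 65.2 ± 4.12 CPM after vehicle (SD, n = 3 each), a log2 fold change of 1.29 (edgeR FDR 4.6e-26). The helicase gene kz had 124 ± 3.46 CPM after insulin and 72.3 ± 2.18 CPM after vehicle (SD, n = 3 each), a log2 fold change of 0.78 (edgeR FDR 7.2e-19). For l(2)34Fd the log2 fold change was 0.83 (edgeR FDR 1.3e-18). Of the 10 genes, 4 exceeded Nop60B, the lowest member, on the log2 scale.

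Factors that assemble and transport snoRNPs gave a median log2 fold change of 0.31. Of 13 tested genes, 10 were called higher, 1 lower and 2 neither, where 27.0% of all genes were called higher and 23.1% lower. CG10341, annotated as NAF1, an H/ACA assembly factor, had 113 ± 3.72 CPM after insulin and 59.4 ± 2.82 CPM after vehicle (SD, n = 3 each), a log2 fold change of 0.93 (edgeR FDR 2.7e-20), which was the only value in the list above that of Nop60B. The paired ATPase genes rept and pont gave 0.60 and 0.60 (edgeR FDR 4.7e-16 and 3.8e-15). Hsp83, the fly Hsp90, had 5136 ± 31.3 CPM after insulin and 3414 ± 35.3 CPM after vehicle (SD, n = 3 each), a log2 fold change of 0.59 (edgeR FDR 5.8e-23). Without library X3 or X6, and with DESeq2, 0 genes of the list were called lower. With DESeq2, 8 were called higher.

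The protein encoded by hoip also sits in the U4/U6.U5 tri-snRNP of the spliceosome, so proteins of that particle were listed as a comparison. Of 7 tested genes, 5 were called higher, 0 lower and 2 neither, at a median log2 fold change of 0.19. The shares over all genes were 27.0% higher and 23.1% lower. CG6841, annotated as Prp6, had 102 ± 5.38 CPM after insulin and 78.8 ± 2.91 CPM after vehicle (SD, n = 3 each), a log2 fold change of 0.37 (edgeR FDR 1.6e-08), the largest of the list. Prp8, l(3)72Ab and Prp3 gave 0.17, 0.19 and 0.21 (edgeR FDR 3.6e-05, 5.2e-05 and 6.9e-04). None of the 7 reached the value of Nop60B or, at 1.94, that of hoip.

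**Figure D2:**
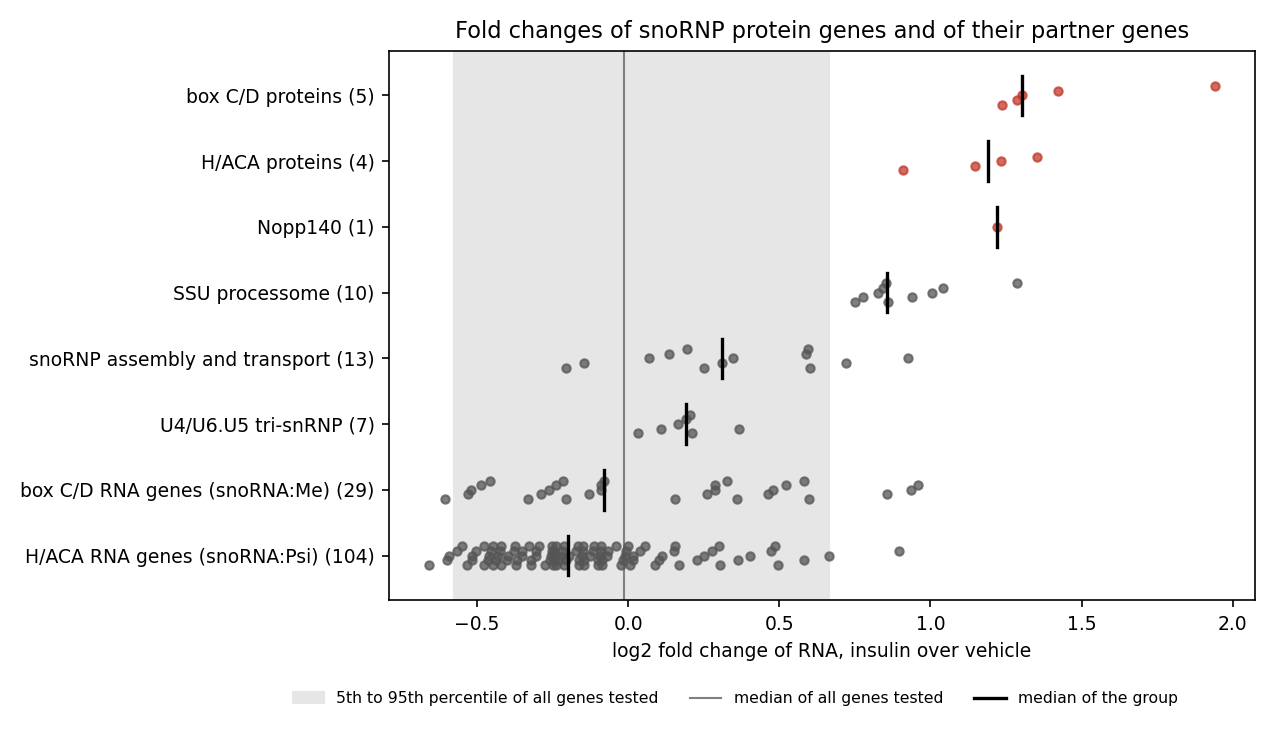
Log2 fold change of RNA, insulin over vehicle, for the snoRNP protein genes (red) and for lists of partner genes (gray), with 1 point a gene and a black bar at the median of each group; the number of genes tested stands beside each name. The shaded band spans the 5th to 95th percentile of all 8683 genes tested, -0.58 to 0.67, and every red point lies to its right.

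The guide RNAs were measured in the same libraries, as far as the library preparation kept RNAs this short. For the box C/D class (names beginning snoRNA:Me), 29 of 56 genes passed the filter, of which 4 were called higher, 2 lower and 23 neither, with a median log2 fold change of -0.08. For the H/ACA class (snoRNA:Psi), 104 of 105 passed, of which 3 were called higher, 3 lower and 98 neither, with a median of -0.20. Among all genes tested, 27.0% were called higher and 23.1% lower. The precision was low, with a median standard error of 0.29 for the box C/D and 0.21 for the H/ACA RNAs. Many of these RNAs have near-identical copies. The counting command given in the paper names no option for reads that match several copies, and how such reads bear on these values was not tested. In the summed H/ACA RNAs the groups overlapped, with 20111, 21295 and 19592 CPM after insulin (X4 to X6), against 24429, 28944 and 19190 CPM after vehicle (X1 to X3). The summed box C/D RNAs overlapped as well, with 148, 140 and 157 CPM after insulin, against 170, 195 and 144 CPM after vehicle.

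The calls on guide RNAs depended on single libraries. Without the vehicle library X3, 49 H/ACA RNAs were called lower and 1 higher, and without X2, 7 were called lower and 13 higher. Without X4 or X5, 0 and 1 were called higher, and without X4, 1 was called lower. With DESeq2, 11 were called lower and 1 higher. Within the H/ACA list, the smallest FDR belonged to snoRNA:Psi18S-301, with 4.42, 3.47 and 3.43 CPM after insulin, against 6.93, 6.66 and 4.84 CPM after vehicle, a log2 fold change of -0.66 (edgeR FDR 0.0043). snoRNA:Psi28S-3316d and snoRNA:Psi18S-1377d gave -0.52 and -0.13 (edgeR FDR 0.0070 and 0.0085), and snoRNA:Psi18S-525d gave 0.90 (edgeR FDR 0.024). Within the box C/D list, snoRNA:Me18S-C1366, with 6.17, 5.49 and 7.41 CPM after insulin, against 3.52, 5.43 and 3.80 CPM after vehicle, gave 0.60 (edgeR FDR 0.0076). snoRNA:Me28S-G3081a and snoRNA:Me28S-A771 gave 0.96 and 0.94 (edgeR FDR 0.012 and 0.017), and snoRNA:Me28S-A2589b gave -0.49 (edgeR FDR 0.022). Without X1, X4 or X5, 1, 0 and 0 box C/D RNAs were called lower, without X3 or X6, 2 and 2 were called higher, and with DESeq2 0 were called in either direction.

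Of the 10 genes, 3 carry in an intron a snoRNA that was counted on its own. Nop60B holds snoRNA:Psi18S-1820 (2R, 24176228 to 24176367), an H/ACA RNA. It had 477, 486 and 400 CPM after insulin, against 431, 673 and 412 CPM after vehicle, with a log2 fold change of -0.15 (SE 0.24, edgeR FDR 0.67). The intron RNA and its host therefore gave different values in the same libraries, -0.15 and 0.91. Fib holds snoRNA:229 (2R, 23073829 to 23073968), which had 13.5, 10.5 and 7.13 CPM after insulin, against 7.71, 15.9 and 5.31 CPM after vehicle (log2 fold change 0.20, SE 0.53, edgeR FDR 0.80). nop5 holds snoRNA:nop5-x16-a (2L, 6917210 to 6917310), with 22, 4 and 12 counts after insulin and 12, 12 and 9 counts after vehicle (log2 fold change 0.40, SE 0.39, edgeR FDR 0.41). For all 3 snoRNAs the libraries of the groups overlapped. The annotation places 6 further snoRNAs within Nop60B, which were not analysed here.

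**Figure D3:**
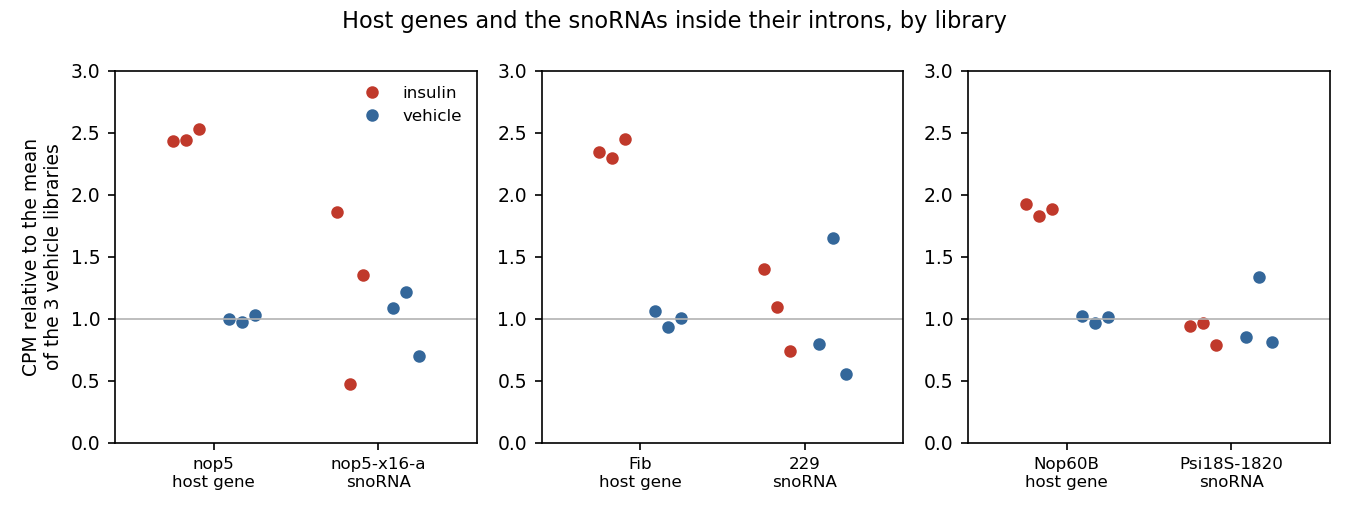
CPM of 3 host genes and of the snoRNA in an intron of each, relative to the mean of the 3 vehicle libraries, for the insulin (red) and vehicle (blue) libraries, with 1 point a library. The insulin points of the host genes lie above the vehicle points, and those of the snoRNAs overlap with them.

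The RNA partners of hoip and U3-55K were looked up after their values had been seen. snoRNA:U3:9B, the most counted gene of U3, had 293, 298 and 248 CPM after insulin, against 324, 413 and 241 CPM after vehicle, and the groups overlapped (log2 fold change -0.21, SE 0.23, edgeR FDR 0.51). snRNA:U4:39B had 184, 197 and 181 CPM after insulin, against 309.5, 404 and 220.2 CPM after vehicle (log2 fold change -0.73, SE 0.26, edgeR FDR 0.082). Its groups did not overlap, yet the vehicle libraries differed among themselves by more than they did from the insulin libraries at their nearest.

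In 5 cases the start of another gene on the opposite strand lies within 500 bp of a member's start. These neighbours were picked from the annotation and not by the rule for naming genes. The starts of Nop56 and mats are 93 bp apart, and mats had 38.0 ± 3.53 CPM after insulin and 39.3 ± 1.04 CPM after vehicle (SD, n = 3 each), a log2 fold change of -0.04 (edgeR FDR 0.65). CG3085, 98 bp from Fib, gave 0.26 (SE 0.21, edgeR FDR 0.31), and mms4, 142 bp from CG7637, gave -0.11 (SE 0.14, edgeR FDR 0.57). mRpS17, 436 bp from Nop60B, gave 0.19 (SE 0.08, edgeR FDR 0.057). Pka-C1, 494 bp from hoip, was called higher with 154 ± 8.57 CPM after insulin and 135 ± 6.03 CPM after vehicle (SD, n = 3 each), a log2 fold change of 0.20 (edgeR FDR 2.1e-04). The members of these pairs gave 0.91 to 1.94.

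ATAC-seq marks open chromatin, and peaks were called on the 3 samples of a treatment together, so that peaks carry no replicate error. The insulin list held 9726 peaks and the vehicle list 9560. Of the 10 genes, 6 had their start under an insulin peak and 5 under a vehicle peak, against 46.5% (insulin list) and 54.4% (vehicle list) of 7862 protein-coding genes tested in RNA-seq. The start lay under a merged peak for 6 of the 10, against 55.8%. The starts of Fib, U3-55K, NHP2 and CG4038 lay under no peak, and their nearest merged peaks were 1925, 5138, 11588 and 20205 bp away. These 4 genes nevertheless had 20.8 to 191 mean CPM after insulin and 8.84 to 81.0 after vehicle.

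By the annotation of the merged peaks, 4 of the 10 members had a peak of their own, each within 1 kb of the start. Of the 7862 protein-coding genes tested in RNA-seq, 55.4% had a merged peak assigned to them. The mean normalized count that the authors give for the merged peak over all libraries was 265 at Nop56, 261 at Nop60B, 233 at nop5 and 230 at Nopp140, where the median over peaks within 1 kb of a start was 263. The start of hoip lay under a wide peak assigned to pelo (authors' mean 1289) and that of CG7637 under a peak assigned to CG12935 (authors' mean 596). Per kilobase of peak all 6 lay between 315 and 396. This put them between percentiles 24.9 and 70.8 of peaks within 1 kb of a start.

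The insulin and vehicle peaks differed in extent at several starts. At nop5 the insulin list had a peak of 710 bp over the start (2L, 6918171 to 6918880), while the vehicle list had none there. A vehicle peak upstream ended at -398 bp from that start. At Nop60B the insulin peak ran from -66 to 543 bp around the start, and the vehicle peak from -266 to 223 bp. At hoip the peaks were 2640 bp wide in the insulin list and 3850 bp in the vehicle list. At Nop56 the insulin peak was 660 bp wide and the vehicle peak 580 bp, at Nopp140 the insulin peak was 510 bp and the vehicle peak 670 bp, and at CG7637 the insulin peak was 1890 bp and the vehicle peak 1860 bp. The peak scores of the members lay between percentiles 27.7 and 67.2 of the insulin list and between 36.1 and 67.8 of the vehicle list. Whether an extent differed beyond sample error cannot be said from pooled calls.

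**Figure D4:**
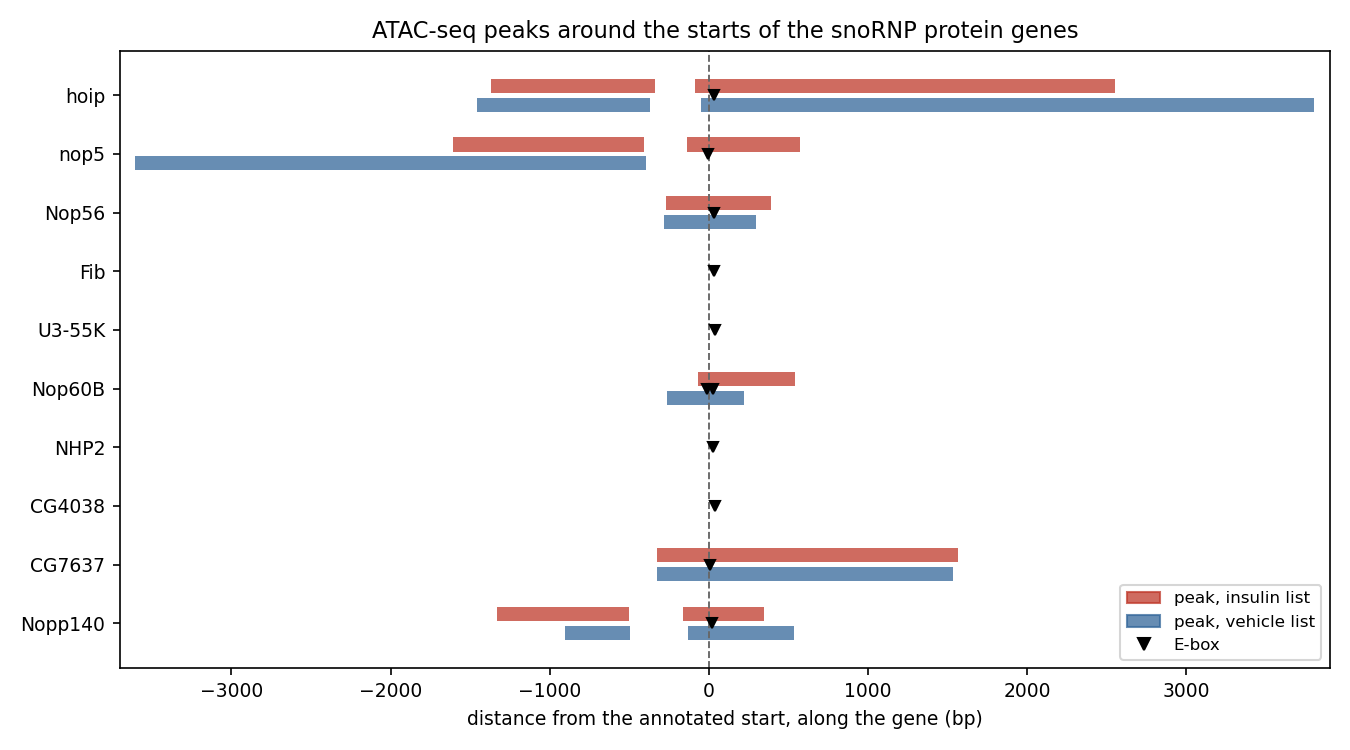
ATAC-seq peaks that reach within 1500 bp of the start of each gene, drawn as bars in bp from the start along the gene, for the insulin list (red, above) and the vehicle list (blue, below), with triangles at E-boxes. At 6 genes a peak covers the start, and nop5 has such a peak in the insulin list alone.

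The E-boxes lay close to the starts. Counting the first transcribed base as 1, the E-box began at position 29 in hoip, 29 in Nop56, 31 in Fib, 38 in U3-55K, 20 in NHP2, 38 in CG4038, 4 in CG7637 and 19 in Nopp140. In nop5 it began 7 bases before the start. Nop60B had 2, one 13 bases before the start and one at position 23. An E-box lay within the first 50 transcribed bases in 9 of the 10, in the 5′ UTR of an annotated transcript each time. It began in these 50 bases in 1.35% of all protein-coding promoters and 1.81% of those tested in RNA-seq. The share was 5.38% of the other genes called higher, and 8 of the 10 SSU processome genes had it there too. hoip has a second annotated start 38 bp downstream, from which its E-box is upstream. At the 6 starts under a merged peak, the E-box lay inside that peak.

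The share with an E-box anywhere in the window was 8.65% of the 2230 other protein-coding genes called higher, 2.28% of the 1885 called lower and 2.54% of the 3737 called neither. In the partner lists, 8 of 10 SSU processome genes held it, against 1 of 14 assembly and transport genes and 1 of 7 tri-snRNP genes. Among the 331 other tested genes with an E-box, 58.3% were called higher and 13.0% lower, against 27.0% and 23.1% of all genes tested. A second motif, TATCGATA, the DNA replication-related element (DRE, also a palindrome, with no base shared with an E-box at either gene), was found in the promoters of Nop60B and CG4038, 2 of the 10, against 9.27% of all protein-coding promoters and 14.8% of those tested. A match describes the letters of the reference, and no factor was measured at these sites.

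**Figure D5:**
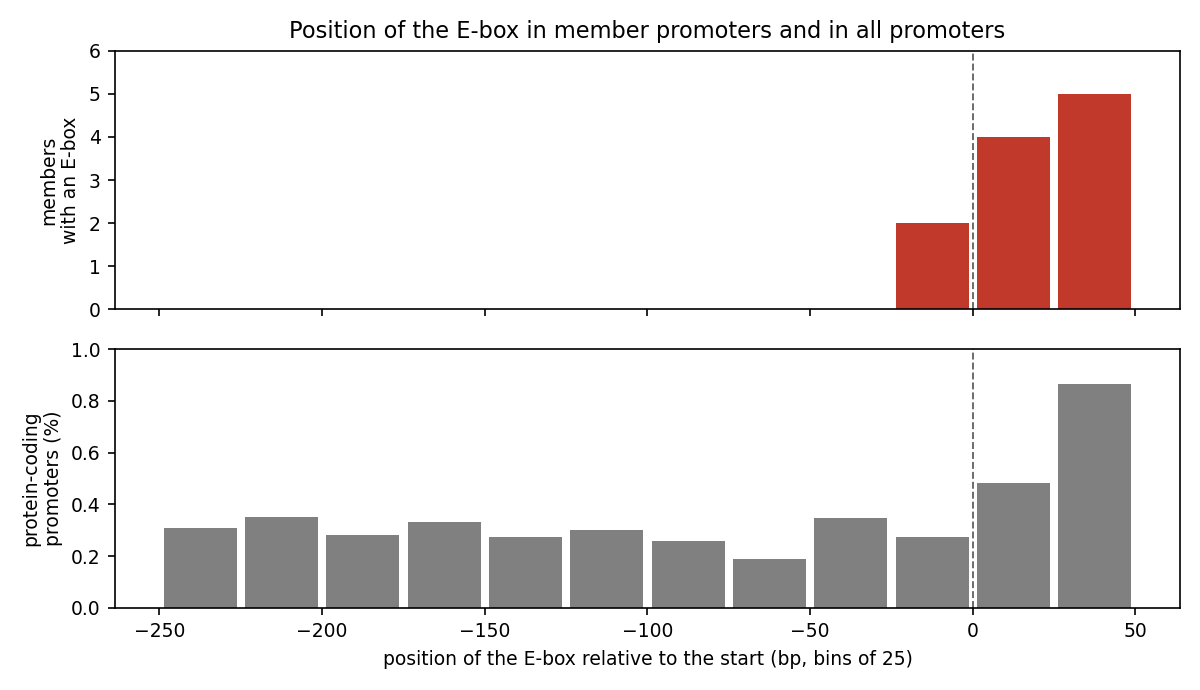
Position of E-boxes relative to the start, in bins of 25 bp from 250 bp before to 50 bp after it: upper panel, number of the 10 genes with an E-box in the bin; lower panel, percent of 13878 protein-coding promoters with one. The 11 E-boxes of the 10 genes lie in the last 3 bins, where the share over all promoters is 0.274%, 0.483% and 0.865%.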

How the data were processed

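RNA-seq (50-nt single reads after Ribo-Zero depletion) and ATAC-seq were performed on 3 insulin and 3 vehicle samples each. For RNA-seq the authors used STAR (BDGP6) and then featureCounts, set to strand, and deposited raw gene counts, which are whole and not normalized. For ATAC-seq they used Novoalign (dm6), with multiply matching reads assigned randomly, and SAMtools. A MACS-based multi-replicate pipeline called peaks over all 3 samples of a treatment at once. The authors' score of each peak was used only as a rank within its list. The lists were merged and annotated with ChIPseeker, and the authors' mean signal of a merged peak, a mean normalized count over the libraries, is given as theirs. Columns of the authors' own DESeq2 comparisons (log2 fold changes and p-values of RNA-seq and ATAC-seq) were not used, and no ATAC-seq values per sample were used. For these tools, versions were not given in the sources used here.

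Counts were scaled by TMM and fitted over all genes with edgeR 4.0.16 (R 4.3.3, limma 3.58.1; glmQLFit with robust fits, quasi-likelihood test), after filterByExpr, which kept 8683 of 10287 genes. P-values were Benjamini-Hochberg adjusted over these genes and called at an FDR of 0.05. The biological coefficient of variation was 4.40%. The fit was tested on simulated data. DESeq2 1.42.0, other size factors, no filter, library sizes without rRNA and mitochondrial genes, and leaving out each library were alternatives. Libraries X4 to X6 are insulin and X1 to X3 vehicle, as the sample sheet in the deposited workbook gives them. CPM are relative to TMM-scaled library sizes, except those of the cell type markers, which are relative to total counts. Gene starts came from the Ensembl annotation in the deposited workbook. Exon and coding lengths, transcripts and 5′ UTRs came from the Ensembl gene models (release 115 names, BDGP6 assembly). Promoters came from the RefSeq sequence of dm6. Motifs were searched on both strands from 250 bases before to 50 bases after each start. Peaks were joined to a start when they covered it, and to each other at an overlap of at least 1 bp. Python 3.11.15, numpy 2.4.6, pandas 2.3.3 and matplotlib 3.10.9 were used.

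The members and lists were chosen with earlier results of these data known. By the rule for naming genes, all members, at most 4 genes of each list with the smallest FDR, and the snoRNAs inside members were named. Named beyond this rule were cell type markers and the U3 and U4 RNA genes. So were genes that lie beside, overlap or contain a member, or to which the peak over its start was assigned.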

Additional observations from a re-analysis of the deposited data

How the results depend on the processing

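The direction of all 10 genes, and their call as higher, was the same in the 10 alternatives run (4 other settings of the fit and each of the 6 libraries left out). The median log2 fold change of the 10 genes ranged from 1.25 to 1.29, that of hoip from 1.91 to 1.97 and that of Nop60B from 0.88 to 0.93. Over all genes, 1861 to 2325 were called higher and 1351 to 2069 lower, with the lowest counts from DESeq2. When libraries were left out in turn, 2068 to 2216 were called higher and 1668 to 1933 lower. The calls of guide RNAs changed most: H/ACA RNAs called lower ranged from 1 to 49 and called higher from 0 to 13, and box C/D RNAs called higher from 0 to 5 and called lower from 0 to 3. The cause was not tested. Requiring the peaks of both lists to overlap by 50% of each left 4 starts under a peak of both treatments in place of 5, without Nop60B. Without that requirement, 45.1% of the 7862 protein-coding genes tested had a start under a peak of both. Joining merged peaks within 1 kb of a start gave 6 genes with a peak in place of 4. Levels per kilobase of coding sequence in place of exon sequence were higher for every gene, such as 964 CPM for hoip and 266 CPM for Nop60B after insulin, and moved Nop60B above NHP2 and Fib in both groups. With 50 bases on each side of the start in place of the longer window, chosen after seeing the data, the 10 promoters still held an E-box. No paired analysis was possible because the RNA-seq columns carry no replicate number. Depth limits CG4038 and snoRNA:nop5-x16-a, and pooled peak calls give no error for accessibility.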
